A study of Homo sapiens with 30 samples.

Results

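The expression of 10 genes of the Hippo pathway's YAP and TEAD output was followed in 30 LX2 libraries. They were the target genes CCN2, CCN1, THBS1, ANKRD1 and CRIM1, the target genes and pathway regulators AMOTL2, AJUBA and LATS2, and the factors YAP1 and TEAD1. The members were given by name and were found by matching Ensembl identifiers, without their version, to gene symbols. All 10 of 10 were found among the 61597 genes of the deposited table, and all 10 passed the minimum level for testing. LX2 is 1 established human line that models activated hepatic stellate cells, which deposit scar matrix in the liver. The 6 groups had 5 libraries each, 1 per group in each of 5 experiments. DHA+BTC cells received docosahexaenoic acid (DHA, an ω3 fatty acid) and then betacellulin (BTC, a ligand of ErbB receptors), and DHA+Veh cells received DHA and then no BTC. OLA+BTC and OLA+Veh cells received oleic acid, an ω9 fatty acid, followed by BTC or no BTC. Veh+BTC cells received BTC with no fatty acid, and Veh+Veh cells received neither. Fatty acids were given at 50 µM on 20 µM albumin, and BTC at 20 ng/ml for 72 h in medium with 1% serum. The protocol gives the fatty acid exposure as 2 cycles of 48 h and also as 96 h, while the treatment labels give 72 h, and the sources used here do not give whether controls received albumin alone. The experiment number follows the group name, so DHA+BTC 5 is the DHA+BTC library of experiment 5. The labels do not say whether the experiments were separate passages, so the p-values cover only how these cultures varied, which may be technical.

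As background, the kinases STK3 and STK4 activate the kinases LATS1 and LATS2. The LATS kinases phosphorylate the coactivators YAP and TAZ and keep them out of the nucleus. Unphosphorylated YAP and TAZ enter the nucleus and bind TEAD factors, which contact DNA and switch on genes of the matrix, the cytoskeleton and growth. LATS2 and AMOTL2 are targets that feed back on YAP, and AJUBA is a LIM protein that restrains LATS. In stellate cells, stiff surfaces and activation to myofibroblasts are known to raise YAP activity.

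The promoters below are shown because TEAD factors recognise the core GGAATG, and its copies can be read beside the expression values. The sequences come from RefSeq (GRCh38.p14), where 7 of the 10 genes had an entry, with 9 windows in all running from 250 bases before to 50 bases after an annotated start. Capitals mark the TEAD core (GGAATG, or CATTCC on the other strand) and, in ANKRD1, an AP-1 motif (TGANTCA). The windows were searched on both strands, and no match overlapped another. The upstream 250 bases are given for CCN2 (chr6:131951373-131951622, minus strand) and ANKRD1 (chr10:90921088-90921337, minus strand). For THBS1 (chr15:39581006-39581065, plus strand), AMOTL2 (chr3:134374484-134374543, minus strand), AJUBA (chr14:22976869-22976928, minus strand) and YAP1 (chr11:102110258-102110317, plus strand), 60 bases around the match are given.
CCN2: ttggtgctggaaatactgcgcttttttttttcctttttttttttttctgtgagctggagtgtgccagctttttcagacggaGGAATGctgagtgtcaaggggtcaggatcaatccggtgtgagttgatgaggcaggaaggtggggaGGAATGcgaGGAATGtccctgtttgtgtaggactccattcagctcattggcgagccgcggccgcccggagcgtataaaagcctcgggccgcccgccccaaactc
ANKRD1: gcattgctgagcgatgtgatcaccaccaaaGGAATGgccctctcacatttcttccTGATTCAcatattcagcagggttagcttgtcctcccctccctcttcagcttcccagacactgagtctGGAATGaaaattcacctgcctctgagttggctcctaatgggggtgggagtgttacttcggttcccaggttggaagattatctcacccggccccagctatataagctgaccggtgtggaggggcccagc
THBS1: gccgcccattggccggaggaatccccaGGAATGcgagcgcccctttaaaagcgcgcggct
AMOTL2: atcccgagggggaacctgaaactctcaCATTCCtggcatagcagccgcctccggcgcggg
AJUBA: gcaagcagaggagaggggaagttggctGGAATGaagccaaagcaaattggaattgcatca
YAP1: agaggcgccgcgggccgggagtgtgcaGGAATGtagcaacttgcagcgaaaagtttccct
CCN2 held 3 copies of the core, at positions -169, -104 and -95 counted from the start, and a TATA box (TATAAA) at -32. ANKRD1 held 2 copies, at -220 and -128, with the AP-1 motif between them at -195. THBS1, AMOTL2, AJUBA and YAP1 each held 1 copy upstream, and the single LATS2 copy lay at bases 10 to 15 after the start. The core was found in 7 of the 9 windows and in all 7 genes with an entry, against 14.03% of 35116 RefSeq promoter windows. The AP-1 motif was found in 1 of the 7 genes and in 7.709% of all windows. The CArG box bound by SRF was found in 0 of the 7 genes and in 1.293% of all windows. CCN1, CRIM1 and TEAD1 had no entry. These matches describe the letters in the windows and not occupied sites.

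**Figure D1:**
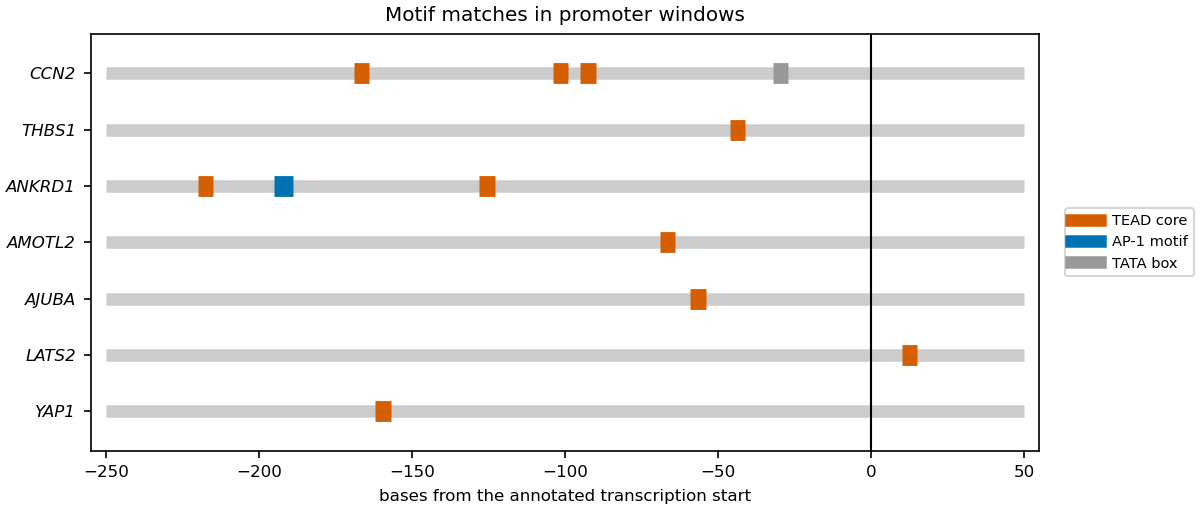
Motif matches in the RefSeq promoter windows of 7 genes (rows), with the distance from the annotated transcription start in bases on the horizontal axis and each window drawn as a grey bar. Orange blocks are TEAD cores, blue the AP-1 motif and grey the TATA box; CCN2 has 3 TEAD cores and ANKRD1 has 2.

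Depth was between 1245182 and 9490142 reads per library. It averaged 3028129 ± 1074169 reads in the DHA arm, 4200426 ± 818122 in the oleic acid arm and 4515158 ± 1933237 in the vehicle arm (SD, n = 10 each). All of the 3 shallowest libraries were DHA libraries, namely those of experiment 5 and DHA+BTC 4. Over the 300 member values the median was 122 reads, 8 values rested on fewer than 10 reads and 2 on none. The share of reads in the 10 most abundant genes had a median of 10.1% in the DHA arm, 8.17% in the oleic acid arm and 8.46% in the vehicle arm. The 10 stellate markers listed for this check summed to between 1385 and 3552 CPM (reads scaled to a library total of 1000000) in every library, although LUM did not exceed 11.5 CPM and DES did not exceed 0.446 CPM. Of markers of other cell types, the 10 epithelial and hepatocyte genes summed to between 121.5 and 788 CPM, with TTR at 0 in every library and EPCAM, ALB, APOA1 and AFP below the level for testing. The 8 leukocyte genes summed to between 13.1 and 94.9 CPM, with CD3E at 0 throughout, and the 8 endothelial genes to between 1.48 and 47.9 CPM, with STAB2 at 0 throughout. The level for testing was reached by 5 of the epithelial and hepatocyte genes (CDH1, KRT19, KRT7, KRT8 and KRT18). It was also reached by 6 of the leukocyte genes, all but CD3E and CD79A, and by 2 of the endothelial genes. The libraries DHA+BTC 5, Veh+BTC 1 and DHA+Veh 5 lay farthest from the fitted group and experiment means over all genes, and results are also given without them. In RNA from whole cultures, fewer cells of a kind and less RNA per cell cannot be told apart.

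With DHA, most of the 10 genes were lower. Averaged over the presence of BTC, 6 of 10 fell relative to vehicle and none rose. CCN2, THBS1 and ANKRD1 led, at 0.312, 0.377 and 0.386 of the vehicle level on the log2(CPM + 1) scale, followed by AJUBA, CRIM1 and TEAD1. Among all 15137 genes tested, 10.7% were called in this comparison, 8.38% as falls and 2.33% as rises (limma, adjusted p under 0.05). All 10 members had differences below 0, with a median of -0.65 on the log2(CPM + 1) scale, against a median of -0.13 over all genes tested, 66.4% of which were below 0. The split of calls over all genes depended on scaling: edgeR on the recovered reads gave 454 rises and 496 falls, and quantile normalization 520 rises and 661 falls. With quantile normalization the median over all genes was -0.0018 and CCN2, THBS1, ANKRD1 and AJUBA were still called, at -1.57, -1.25, -1.30 and -0.79. Without the 3 libraries farthest from the fit, 6 members and 830 of all genes were called. Without the 3 shallowest, 4 members and 575 of all genes were. Within single experiments, 45 of 50 differences between the DHA and vehicle arms were below 0. The members share libraries and correlate with each other, so the 50 differences are not independent. No such share was taken over all genes.

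**Figure D2:**
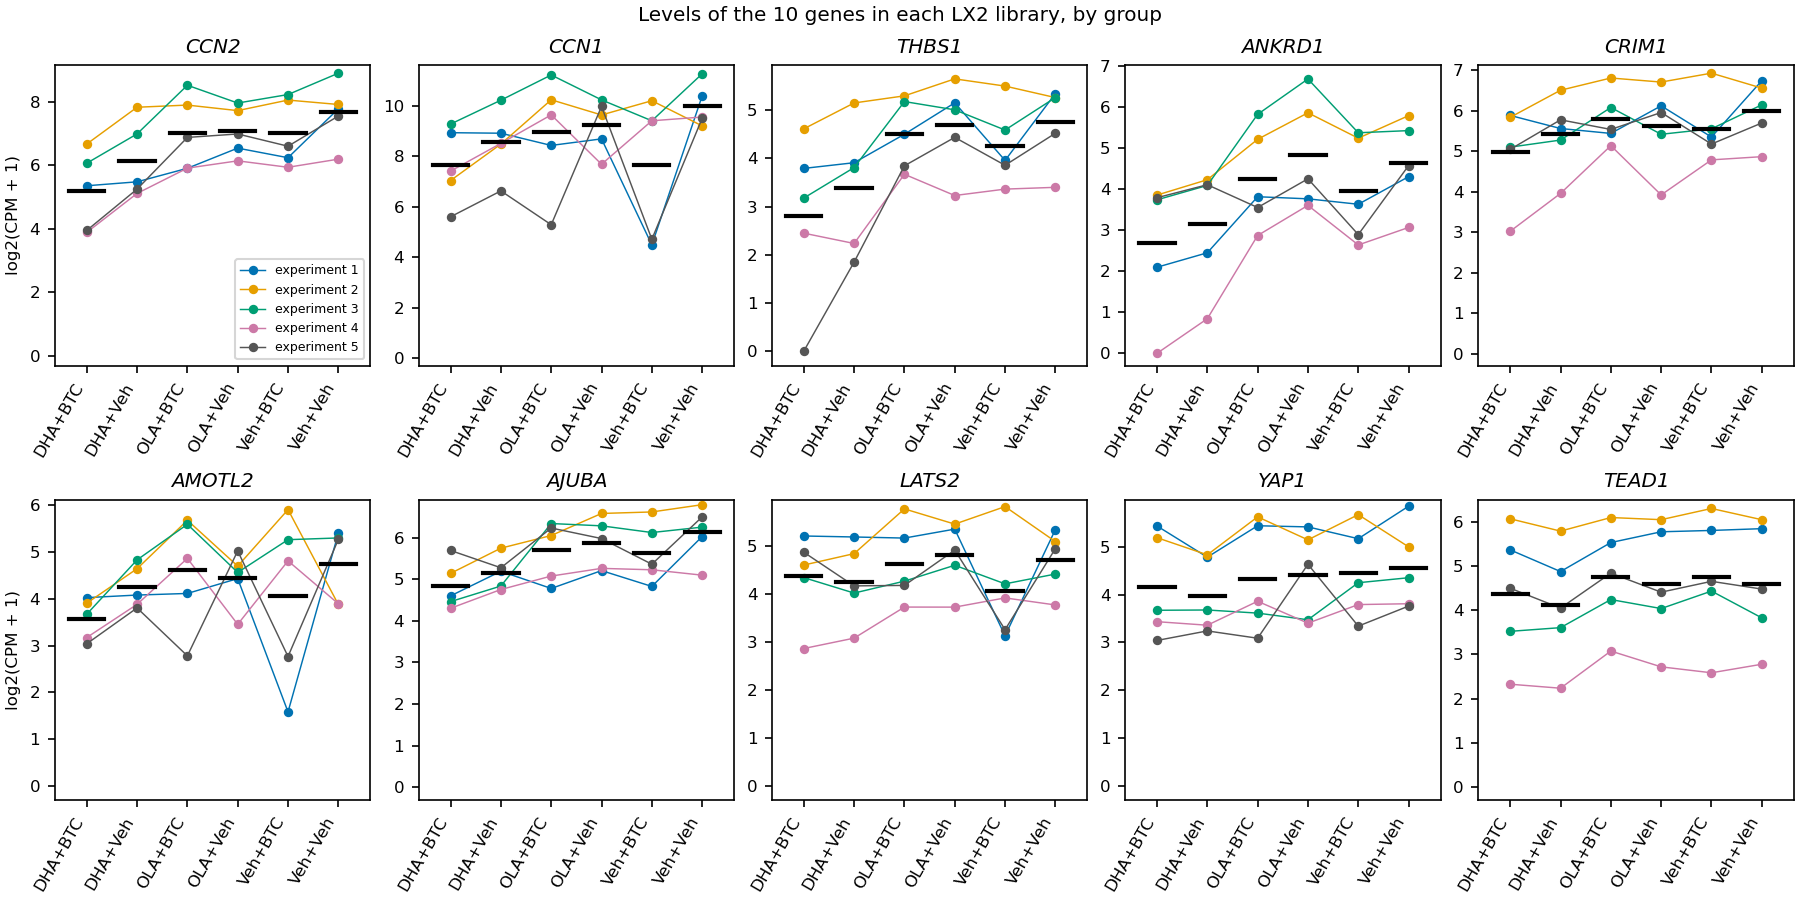
Levels of each gene in the 30 libraries as log2(CPM + 1) (vertical axis) by group (horizontal axis). Points of 1 experiment are joined and share a colour, and black bars are group means; the DHA groups lie lowest for CCN2, THBS1 and ANKRD1, while TEAD1 is separated mainly by experiment.

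CCN2 (formerly CTGF) encodes a secreted matricellular protein that promotes fibrosis. In experiments 1 to 5, CCN2 was at 39.9, 101, 65.9, 13.8 and 14.5 CPM in DHA+BTC libraries and at 74.4, 264, 298, 60.2 and 95.9 CPM in Veh+BTC libraries. Without BTC it was at 43.6, 225, 126, 33.6 and 37.0 CPM in DHA+Veh libraries and at 218, 239, 474, 72.1 and 186 CPM in Veh+Veh libraries. The DHA library was the lower of the pair in all 10 pairs, although the groups overlapped because experiments 2 and 3 were high throughout. The level averaged 70.0 ± 65.4 CPM in the DHA arm and 198 ± 131 CPM in the vehicle arm (SD, n = 10 each), a log2 difference of -1.68 ± 0.19 (SE; 0.312-fold; limma adjusted p = 7.85e-07). In oleic acid libraries CCN2 was at 58.9, 236, 365, 59.1 and 116 CPM with BTC and at 91.9, 209, 247, 69.4 and 125 CPM without it. CCN2 was lower with DHA than with oleic acid by a log2 difference of -1.39 ± 0.19 (SE; limma adjusted p = 1.55e-05).

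THBS1 encodes thrombospondin 1, a matricellular glycoprotein that can activate latent TGF-β. In experiments 1 to 5 it was at 12.8, 23.5, 8.04, 4.46 and 0 CPM in DHA+BTC libraries and at 14.5, 44.2, 23.0, 9.28 and 13.5 CPM in Veh+BTC libraries. In the absence of BTC, its level was at 14.0, 34.5, 13.0, 3.71 and 2.60 CPM in DHA+Veh libraries and at 39.6, 37.4, 37.4, 9.55 and 22.0 CPM in Veh+Veh libraries. The value of 0 belonged to the shallowest library, DHA+BTC 5, where 3 reads correspond to 2.41 CPM, and DHA was lower in all 10 pairs with vehicle and all 10 with oleic acid. THBS1 fell by 1.41 ± 0.27 on the log2 scale against vehicle (SE; limma adjusted p = 6.68e-04) and differed by -1.50 ± 0.27 from oleic acid (limma adjusted p = 4.10e-04). Experiment 5 held the largest difference from vehicle, -3.26, against -0.50 to -1.43 in the other 4. Without the 3 libraries farthest from the fit, 2 of them from that experiment, the difference from vehicle was -1.05 (adjusted p = 4.90e-04).

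ANKRD1 encodes an ankyrin repeat protein of the nucleus and sarcomere and is a widely used readout of YAP. In experiments 1 to 5 it was at 3.28, 13.5, 12.4, 0 and 12.8 CPM in DHA+BTC libraries and at 11.4, 36.9, 40.5, 5.24 and 6.43 CPM in Veh+BTC libraries. Without BTC it was at 4.46, 17.8, 16.0, 0.794 and 16.2 CPM in DHA+Veh libraries and at 18.8, 54.4, 42.0, 7.38 and 22.8 CPM in Veh+Veh libraries. DHA was lower in 9 of 10 pairs, and the exception was experiment 5 with BTC. The fall against vehicle was 1.37 ± 0.25 on the log2 scale (SE; limma adjusted p = 4.61e-04). Against oleic acid, where levels reached 102 CPM, the log2 difference was -1.62 ± 0.25 (limma adjusted p = 7.32e-05). By experiment the differences from vehicle were -1.69, -1.47, -1.48, -2.43 and 0.22, so experiment 5, in which THBS1 differed most, was the one in which ANKRD1 was not lower. Both extremes rested on few reads of ANKRD1, with 3 in DHA+Veh 4, 0 in DHA+BTC 4, 25 in DHA+Veh 5 and 16 in DHA+BTC 5.

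CCN1 (formerly CYR61), the matricellular relative of CCN2, varied more from library to library than any other member. In experiments 1 to 5 it was at 486, 130.0, 616, 168 and 47.4 CPM in DHA+BTC libraries, at 342, 1201, 2374, 793 and 37.9 CPM in OLA+BTC libraries and at 21.4, 1170.1, 674, 674 and 25.1 CPM in Veh+BTC libraries. In libraries that received no BTC, it was at 479, 355, 1188, 362 and 97.5 CPM in DHA+Veh libraries, at 409.9, 791, 1198, 204 and 999 CPM in OLA+Veh libraries and at 1336, 586, 2452, 748 and 721 CPM in Veh+Veh libraries. The lowest 4 values all came from libraries with BTC, 3 of them from experiment 5 and the very lowest from Veh+BTC 1. The log2 difference between DHA and vehicle was -0.71 (95% interval -1.77 to 0.35; limma adjusted p = 0.42), and that between DHA and oleic acid was -1.001 (-2.06 to 0.06; adjusted p = 0.214). After fitting group and experiment, CCN1 kept a residual SD of 1.41 on the log2 scale, against 0.47 for CCN2, so a difference of the size seen in CCN2 lay inside its interval.

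CRIM1, a transmembrane protein that binds BMP ligands, had lowest, median and highest levels of 7.13, 42.1 and 90.2 CPM in the DHA arm and 26.7, 48.6 and 121 CPM in the vehicle arm. It fell by 0.58 ± 0.18 on the log2 scale against vehicle (SE; limma adjusted p = 0.0353) and was lower in all 5 experiments, by as little as 0.03 in experiment 5. The call was lost under each rescaling of the libraries (adjusted p = 0.0643 to 0.0863), and against oleic acid CRIM1 differed by -0.52 (adjusted p = 0.062). FEZ2, which GENCODE places on the opposite strand overlapping CRIM1, averaged 42.7 CPM and differed by -0.43 between DHA and vehicle (adjusted p = 0.0851), and whether the counting separated strands was not given.

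Of the regulators, AJUBA fell and AMOTL2 and LATS2 were not called. In experiments 1 to 5 AJUBA was at 23.2, 34.2, 21.0, 18.7 and 50.6 CPM in DHA+BTC libraries and at 27.4, 97.0, 68.6, 36.4 and 40.1 CPM in Veh+BTC libraries. Without BTC it was at 35.5, 52.6, 27.5, 25.9 and 37.7 CPM in DHA+Veh libraries and at 64.1, 109.6, 75.1, 33.2 and 89.3 CPM in Veh+Veh libraries. No DHA library exceeded 52.6 CPM, and DHA+BTC 5 was the only DHA library above its vehicle partner. The fall was 0.88 ± 0.17 on the log2 scale against vehicle (SE; limma adjusted p = 8.46e-04) and 0.78 ± 0.17 against oleic acid (limma adjusted p = 0.00304). AMOTL2, an angiomotin-like scaffold that holds YAP in the cytoplasm, had lowest, median and highest levels of 7.23, 13.9 and 27.5 CPM in the DHA arm and 2.00, 32.3 and 59.2 CPM in the vehicle arm. Its log2 difference was -0.50 (95% interval -1.25 to 0.24; limma adjusted p = 0.42), and the vehicle arm held both the lowest and the highest values. LATS2 was at 6.24 to 35.8 CPM in the DHA arm and 7.70 to 55.3 CPM in the vehicle arm, with a log2 difference of -0.07 (-0.55 to 0.40; adjusted p = 0.889) that was above 0 under median-of-ratios scaling (0.04) and quantile normalization (0.05).

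Of the factors, TEAD1 fell and YAP1 was not called. TEAD1, a DNA-binding partner of YAP, was at 40.5, 66.6, 10.5, 4.01 and 21.7 CPM in DHA+BTC libraries and at 55.3, 78.5, 20.7, 5.00 and 24.3 CPM in Veh+BTC libraries of experiments 1 to 5. With no BTC it was at 28.5, 54.7, 11.2, 3.71 and 15.6 CPM in DHA+Veh libraries and at 56.9, 65.6, 13.2, 5.86 and 21.4 CPM in Veh+Veh libraries. DHA was lower in all 10 pairs with vehicle and all 10 with oleic acid, although the arms overlapped almost completely because experiments 1 and 2 were many times higher than experiment 4. TEAD1 fell by 0.44 ± 0.13 against vehicle (SE; limma adjusted p = 0.0243) and by 0.45 ± 0.13 against oleic acid (limma adjusted p = 0.0236). Both calls were lost under each rescaling of the libraries and with edgeR and DESeq2 (adjusted p = 0.0577 to 0.169 over the 10 values). YAP1, the coactivator, was at 42.4, 35.6, 11.8, 9.81 and 7.23 CPM in DHA+BTC libraries and at 35.1, 50.1, 18.0, 12.9 and 9.13 CPM in Veh+BTC libraries. Without BTC it was at 26.6, 27.5, 11.8, 9.27 and 8.45 CPM in DHA+Veh libraries and at 56.8, 31.0, 19.5, 13.0 and 12.5 CPM in Veh+Veh libraries. DHA was lower in 9 of 10 pairs, and the log2 difference was -0.43 (95% interval -0.80 to -0.07; limma adjusted p = 0.117), which was not called.

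**Figure D3:**
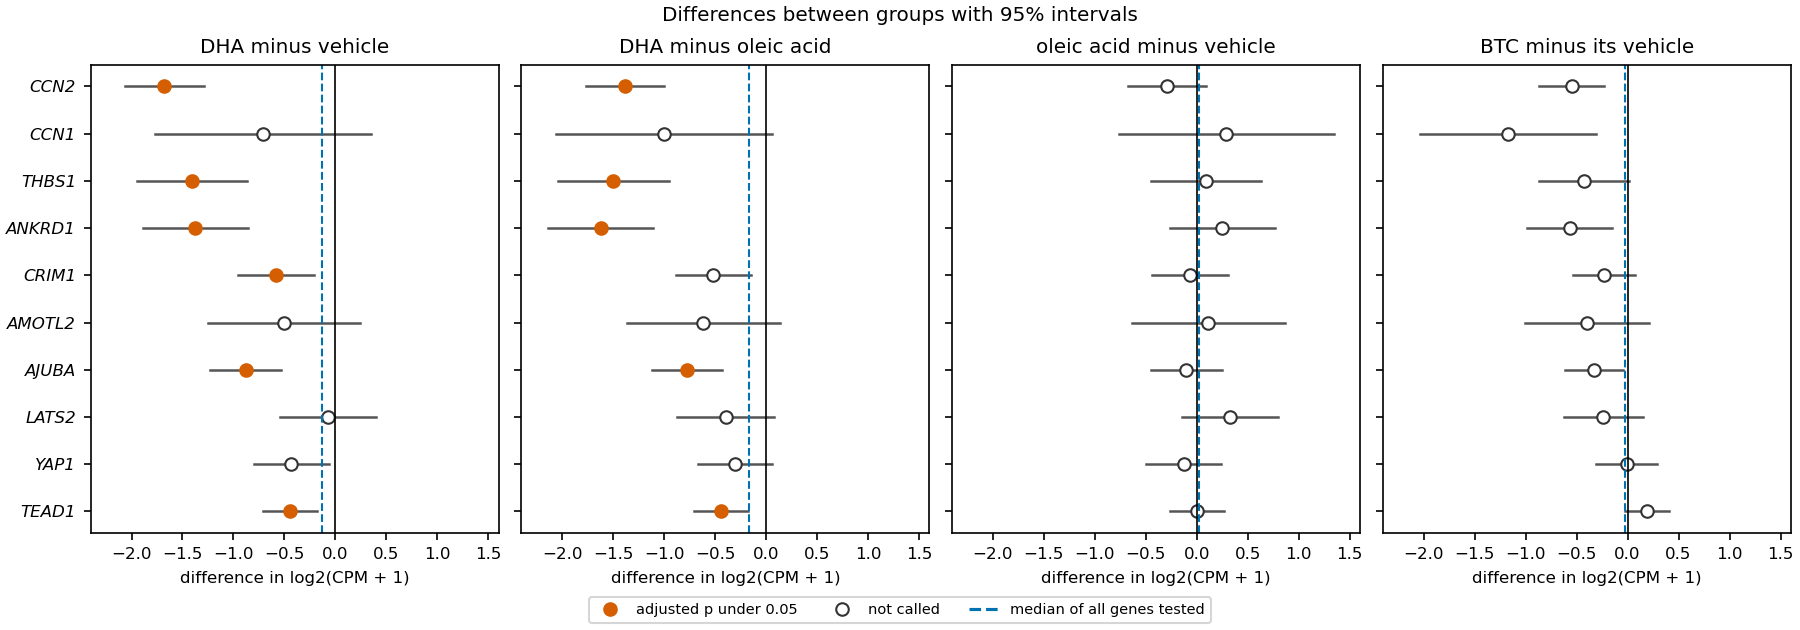
Differences in log2(CPM + 1) (horizontal axis) for the 10 genes (rows) in 4 comparisons, with 95% intervals from limma. Filled orange points passed an adjusted p of 0.05, open points did not, and the dashed blue line is the median over all genes tested; the calls lie in the 2 comparisons of DHA, 6 against vehicle and 5 against oleic acid.

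Measured against oleic acid, a fatty acid given at the same concentration, 5 of the 10 genes fell with DHA, CCN2, THBS1, ANKRD1, AJUBA and TEAD1, and none rose. Among all genes, 11.4% were called in this comparison, 8.96% as falls and 2.4% as rises. The members' median difference was -0.70, against -0.17 over all genes tested, 69.9% of which were below 0. Within experiments, 47 of 50 differences of the members were below 0, again not independent of each other and with no share over all genes. The comparisons with vehicle and with oleic acid share the DHA libraries and are not independent of each other. With oleic acid none of the 10 genes was called against vehicle, where 0% of all genes were called by limma, edgeR or DESeq2, while 302 genes had an unadjusted limma p under 0.05. The median difference was 0.05 and the differences ran from -0.29 for CCN2 (95% interval -0.68 to 0.09) to 0.33 for LATS2 (-0.15 to 0.80). Of 50 differences within experiments, 22 were below 0, and CCN2 was below 0 in all 5 experiments, at -0.78, -0.18, -0.32, -0.04 and -0.14. The interval for CCN1 was the widest, from -0.77 to 1.35.

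Each averaged comparison counts an experiment's BTC and no-BTC libraries as independent samples, so their p-values may be too small. With 1 value per experiment and arm, CCN2, THBS1, ANKRD1 and AJUBA were still called against vehicle, while CRIM1 (adjusted p = 0.057) and TEAD1 (0.114) were not. Contrasts within each BTC condition, taken from the same fit of all 30 libraries, each had 3 members called. CCN2, ANKRD1 and AJUBA fell in DHA+Veh against Veh+Veh libraries, where 0.945% of all genes fell. CCN2, THBS1 and ANKRD1 fell in DHA+BTC against Veh+BTC (2.46% of all genes fell), in DHA+Veh against OLA+Veh (2.38%) and in DHA+BTC against OLA+BTC (1.12%). Many of these calls were lost in other settings. Further fits held only the arms compared, each with its BTC and no-BTC groups. There ANKRD1 and AJUBA were not called in DHA+Veh against Veh+Veh (limma adjusted p = 0.0627 and 0.0872). THBS1 and ANKRD1 were not called in DHA+BTC against Veh+BTC (limma adjusted p = 0.0771 and 0.0859). Nor were CCN2 and THBS1 in DHA+Veh against OLA+Veh (limma adjusted p = 0.0569 and 0.0656). Over 49 alternatives, the calls in DHA+Veh against Veh+Veh were lost in 2 for CCN2, 17 for ANKRD1 and 19 for AJUBA. Those in DHA+BTC against Veh+BTC were lost in 1 for CCN2, 13 for THBS1 and 20 for ANKRD1. Those in DHA+Veh against OLA+Veh were lost in 29 for CCN2, 34 for THBS1 and 3 for ANKRD1, and those in DHA+BTC against OLA+BTC in 1 for CCN2, 11 for THBS1 and 11 for ANKRD1. The log2 differences of CCN2 in these 4 comparisons were -1.53, -1.82, -0.94 and -1.83, and those of ANKRD1 were -1.49, -1.26, -1.69 and -1.56. Whether BTC altered the DHA effect was tested directly. In the interaction of DHA and BTC 0% of all genes and none of the members were called, with 527 genes at an unadjusted limma p under 0.05 and 0 calls by edgeR or DESeq2. The estimates farthest from 0 were 1.44 for CCN1 (95% interval -0.67 to 3.56) and 0.76 for LATS2 (-0.18 to 1.71). Leaving out 1 library or experiment gave 0.32 (without experiment 1) to 2.41 (without experiment 2) for CCN1 and 0.36 (without Veh+BTC 1) to 1.198 for LATS2, and without the 3 libraries farthest from the fit they were 0.64 and 0.20.

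BTC had no member called against its vehicle, averaged over pretreatments, and 0% of all genes were called by limma, edgeR or DESeq2 (609 genes at an unadjusted limma p under 0.05). Of the members' differences 9 of 10 were below 0, with a median of -0.36. Over all genes tested 55.2% were below 0, with a median of -0.02. CCN1 averaged 584 ± 635 CPM with BTC and 795 ± 592 CPM without it (SD, n = 15 each), a log2 difference of -1.17 (95% interval -2.04 to -0.31; limma adjusted p = 0.994). CCN2 differed by -0.55 (-0.86 to -0.23; adjusted p = 0.994; unadjusted p = 0.00127) and was lower with BTC in 12 of 15 pairs. ANKRD1 differed by -0.57 (-0.98 to -0.15) and was lower in 14 of 15 pairs, and AJUBA by -0.33 (-0.61 to -0.05) and was lower in 11 of 15. THBS1, AMOTL2, CRIM1, LATS2 and YAP1 differed by -0.43, -0.40, -0.23, -0.24 and -0.007. In that order, they were lower with BTC in 11, 10, 10, 8 and 7 of 15 pairs. TEAD1 differed the other way, by 0.19 (-0.03 to 0.40), and was higher with BTC in 11 of 15 pairs. The 95% intervals are not adjusted for the number of genes tested. Over all members, 97 of 150 pairs were lower with BTC. The members share libraries and correlate with each other, so these counts are not independent.

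The BTC differences varied between experiments. In experiments 1 and 5 CCN1 differed by -2.05 and -3.50 and AMOTL2 by -1.40 and -1.84, whereas in experiments 2 and 4 CCN1 differed by 0.05 and 0.24 and AMOTL2 by 0.76 and 0.54. CCN2, ANKRD1 and AJUBA were lower with BTC in all 5 experiments. Leaving out Veh+BTC 1, DHA+Veh 5 and DHA+BTC 5 gave BTC differences of -0.89 for CCN1, -0.50 for CCN2, -0.59 for ANKRD1 and -0.18 for AMOTL2. Within pretreatments, 0% of all genes were called in DHA+BTC against DHA+Veh, in OLA+BTC against OLA+Veh or in Veh+BTC against Veh+Veh (629, 299 and 1539 genes at an unadjusted limma p under 0.05, in that order). CCN1 differed by -0.90 after DHA, by -0.28 after oleic acid and by -2.34 with no fatty acid (95% interval -3.84 to -0.85; limma adjusted p = 0.445). The interaction of oleic acid and BTC was 2.06 for CCN1 (-0.05 to 4.18; adjusted p = 0.592), and 0% of all genes and none of the members were called there (1279 genes at an unadjusted limma p under 0.05; 0 calls by edgeR or DESeq2).

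**Figure D4:**
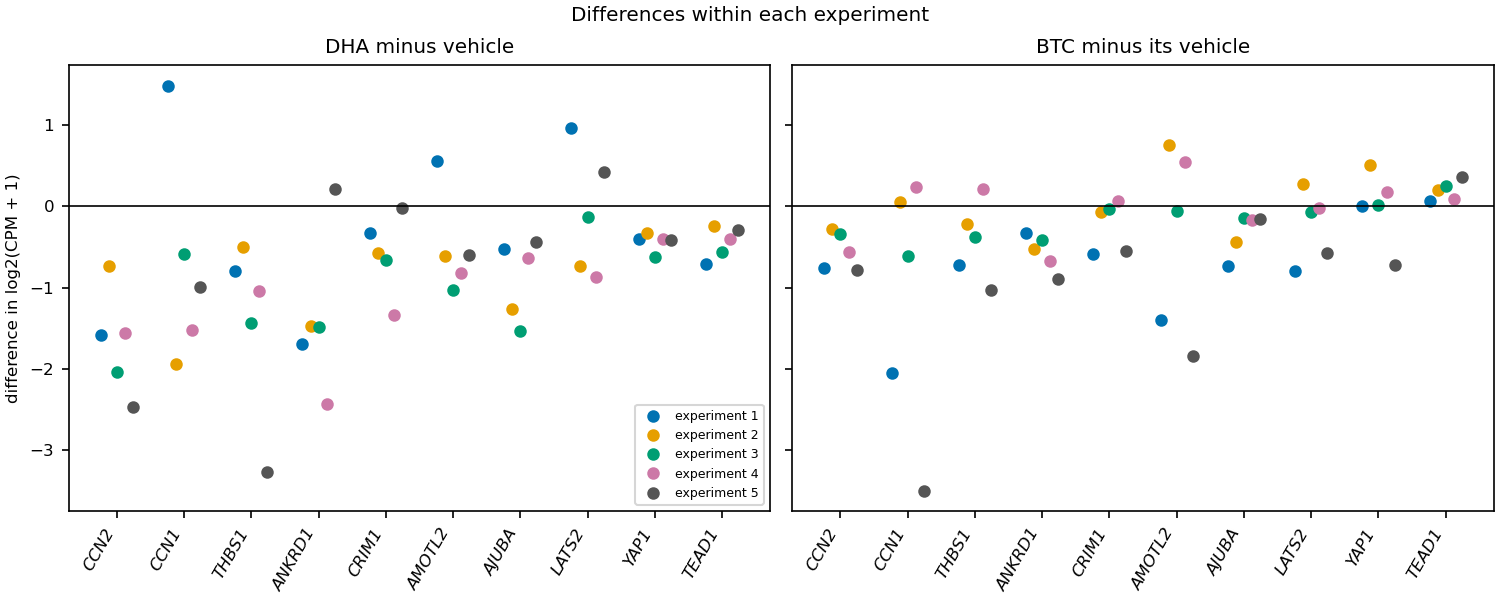
Differences in log2(CPM + 1) (vertical axis) within each of 5 experiments (colours) for the 10 genes (horizontal axis), DHA minus vehicle at left and BTC minus its vehicle at right. CCN2, THBS1, CRIM1, AJUBA, YAP1 and TEAD1 are below 0 in all 5 experiments at left, and CCN1 at right ranges from -3.50 to 0.24.

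The experiment accounted for much of the variation. It held 95.04% of the sum of squares of TEAD1, 83.3% of YAP1, 70.5% of CRIM1, 60.02% of ANKRD1 and 50.0% of CCN2, and the groups held 3.42%, 4.69%, 13.3%, 28.5% and 40.8% of these genes, listed in the same order. TEAD1 averaged 46.8, 66.5, 14.8, 5.27 and 21.8 CPM over the 6 libraries of experiments 1 to 5, and YAP1 averaged 40.9, 37.9, 13.7, 11.3 and 11.5 CPM. AMOTL2 was the reverse, with 21.5% between experiments, 15.7% between groups and 62.8% left. Ordered by mean log2 level, CCN2 ran from DHA+BTC (46.9 ± 36.9 CPM) through DHA+Veh (93.1 ± 83.2), Veh+BTC (158 ± 113), OLA+BTC (167 ± 132) and OLA+Veh (149 ± 76.5) to Veh+Veh (238 ± 147; SD, n = 5 each). Of the 5 steps between neighbours in this order, DHA+Veh against Veh+BTC passed the test (limma adjusted p = 0.0488; 3.94% of all genes fell there), and the other 4 did not. That call was lost in 33 of 48 alternatives, among them a pseudocount of 0.5 (adjusted p = 0.0504), TMM scaling (0.0594), quantile normalization (0.0624) and edgeR (0.0835). THBS1 and AJUBA had the same order of groups as CCN2, with no step between neighbours passing the test. YAP1 and TEAD1 had the DHA groups lowest too, and CCN1 and LATS2 had Veh+BTC lowest, again with no neighbouring step called.

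The 10 genes did not vary as 1 block. After removal of experiment means, CCN1, AMOTL2 and LATS2 followed each other over the 30 libraries, with Pearson correlations of 0.91 (CCN1 and AMOTL2), 0.80 (CCN1 and LATS2) and 0.75 (AMOTL2 and LATS2). These stayed at 0.93, 0.79 and 0.79 when group means were removed as well. CRIM1 and YAP1 correlated with CCN1 at 0.70 and 0.62, and at 0.64 and 0.70 with group means removed. CCN2 and THBS1 correlated at 0.90, and at 0.76 with group means removed. CCN2 and AJUBA correlated at 0.76 but at 0.19 with group means removed, ANKRD1 and AJUBA at 0.76 and 0.32, and CCN2 and ANKRD1 at 0.64 and -0.26. Over all 45 pairs the correlations had a median of 0.51, and of 0.30 with group means removed. The points share libraries, depth and scaling, so these values are descriptions.

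**Figure D5:**
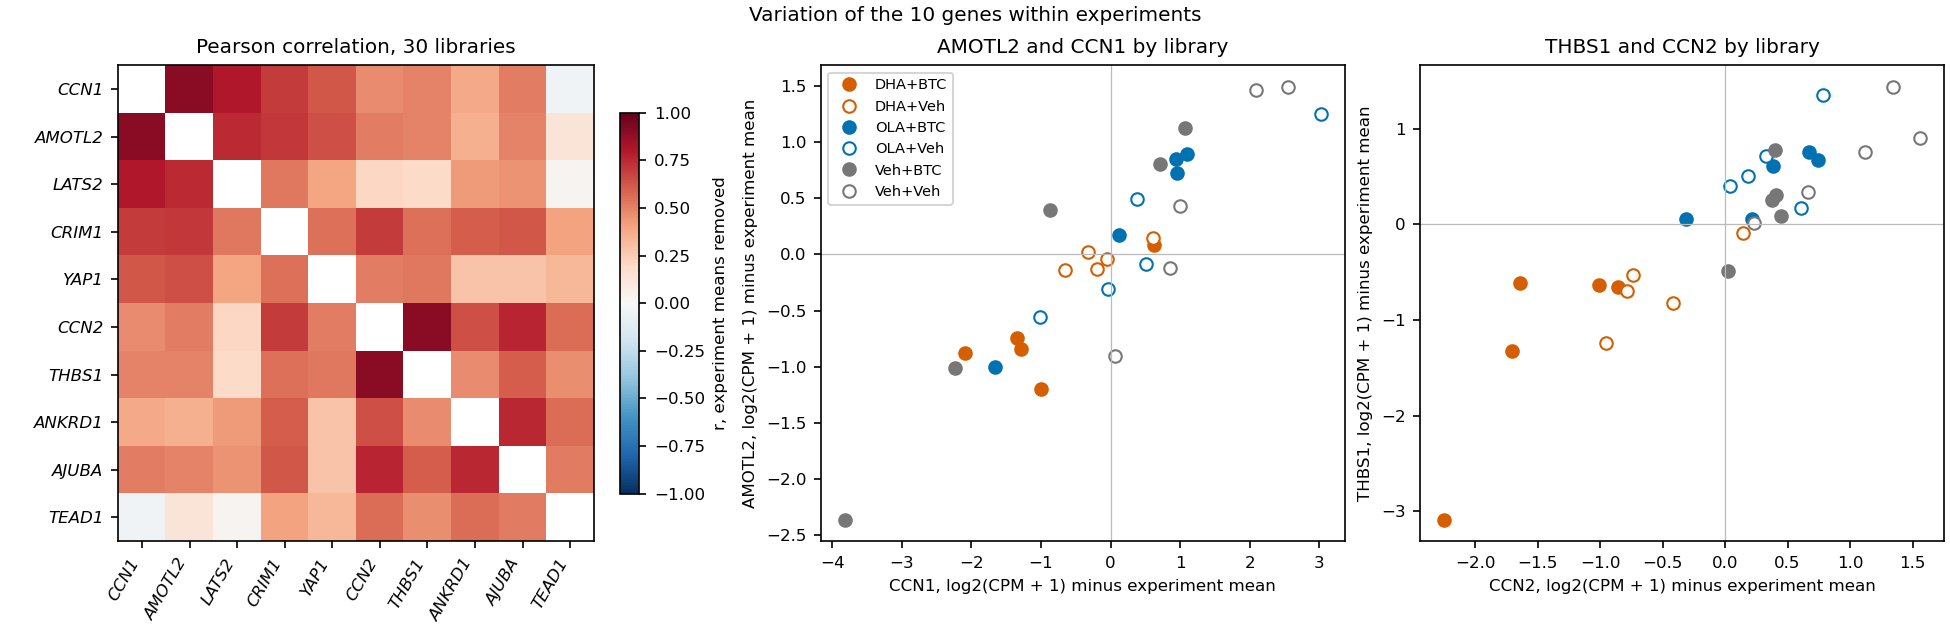
Left, Pearson correlations between the 10 genes over 30 libraries after removal of experiment means. Centre and right, AMOTL2 against CCN1 and THBS1 against CCN2, each as log2(CPM + 1) minus the experiment mean, with 1 point per library, colour for the fatty acid and filled points for BTC. The DHA libraries other than DHA+Veh 2 lie lowest in the right panel, whereas the lowest point of the centre panel is Veh+BTC 1.

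CCN1, AMOTL2 and LATS2 also followed many genes outside the pathway. With experiment and group means removed, 689 of the 10066 genes searched (6.85%) had a correlation of at least 0.8 in size with CCN1, 473 with AMOTL2 and 243 with LATS2, against 1 with CCN2, 1 with AJUBA and 20 with ANKRD1. With experiment means alone removed, the counts were 470 for CCN1, 268 for AMOTL2, 204 for THBS1, 133 for LATS2 and 110 for CCN2, so LATS2 was then close to CCN2 and below THBS1. The first principal component of what was left after group and experiment held 20.9% of the variance. Its correlations in size were 0.96 with CCN1, 0.91 with AMOTL2, 0.83 with LATS2, 0.75 with CRIM1 and 0.70 with YAP1. With the others they were 0.30 for AJUBA, 0.29 for CCN2, 0.24 for THBS1, 0.11 for TEAD1 and 0.07 for ANKRD1. Veh+BTC 1 had the score farthest from 0. What this component stands for was not tested. The genes most like CCN1 with experiment means removed were HMGN1 (r = 0.96), SRSF1 (0.96), SULT1A1 (0.95), ACTN4 (0.95) and C5orf15 (0.95). HMGN1 is a nucleosome-binding protein, SRSF1 a splicing factor and ACTN4 an actin crosslinker. SULT1A1 has near-identical copies, so its reads are uncertain, and none of these 5 genes was called between DHA and vehicle (adjusted p = 0.294 to 0.915). The genes most like CCN2 were IGFBP5 (r = 0.95), TAGLN (0.93), SERPINB9 (0.92), TFAP2A (0.91) and HEG1 (0.90). IGFBP5 binds insulin-like growth factors and TAGLN is a smooth muscle actin-binding protein. All 5 fell with DHA against vehicle, IGFBP5 by 1.84 and TAGLN by 1.21 on the log2 scale (limma adjusted p = 1.07e-07 and 4.56e-05). They were picked with group means left in, so the fall of CCN2 with DHA entered the choice. Their falls are therefore not independent of that of CCN2.

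Other genes reported as YAP and TEAD targets divided in the same comparison. Of 27 tested of 28 listed, 11 fell with DHA against vehicle, 2 rose and the median difference was -0.41. Over all genes tested, 8.38% fell and 2.33% rose, with a median of -0.13. CCDC80, a secreted matrix protein, fell by 1.26, FSTL1, a secreted glycoprotein, by 0.72, the receptor tyrosine kinase AXL by 0.90 and the mitotic regulator BIRC5 by 0.68 (limma adjusted p = 5.01e-07 to 5.15e-04). NT5E, the ectonucleotidase CD73, rose by 0.48 on the log2 scale (limma adjusted p = 0.0442). Of 29 tested genes for other Hippo kinases, adaptors and TEAD partners, 6 fell and none rose, with a median of -0.26. VGLL2 and VGLL3, cofactors that bind TEADs, fell by 2.21 and 0.97, AMOT, the angiomotin scaffold, by 1.25 and WWC1, the adaptor KIBRA, by 0.57 (limma adjusted p = 2.61e-05 to 0.0289). WWTR1, which encodes TAZ, differed by 0.31 (adjusted p = 0.327) and LATS1 by 0.16 (adjusted p = 0.797). NT5E, WWTR1 and LATS1 were picked for mention after their values were seen.

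Actin and SRF target genes were also lower with DHA, with 12 falls and 1 rise among 18 and a median of -0.59. For this and the lists below, 8.38% of all genes tested fell and 2.33% rose, with a median of -0.13 and 66.4% below 0. CALD1 fell by 1.13, TAGLN by 1.21, FLNC by 1.08 and ACTA2, the actin of activated stellate cells, by 1.25 (limma adjusted p = 1.63e-06 to 6.08e-04), while SRF itself rose by 0.50 (adjusted p = 0.0359; picked for mention after its value was seen). Of 14 TGF-β SMAD targets, 2 fell (TIMP3 by 1.01 and SMAD6 by 0.68) and 2 rose (SERPINE2 by 0.93 and IL11 by 1.69), with a median of 0.11 (limma adjusted p = 2.81e-05 to 0.0302). Of 8 tested matricellular and CCN family genes, 3 fell (SPARC by 0.92, THBS2 by 0.77 and CCN5 by 1.37) and 1 rose (TNC by 0.70), with a median of -0.50 (limma adjusted p = 5.13e-04 to 0.0482). Of 9 tested stellate markers, 4 fell and 1 rose, with a median of -0.46. Of 6 proliferation markers, 4 fell with DHA (MKI67, TOP2A, TPX2 and CCNB1), and the list summed to between 686 and 2774 CPM in the DHA arm and between 1008 and 3950 CPM in the vehicle arm. Of the tested markers of other cell types, CD14 and KRT18 fell and CDH1 rose, out of 6 leukocyte, 5 epithelial and 2 endothelial genes. Their part in the members' differences was not tested.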

How the data were processed

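RNA was measured by 3′ tag sequencing (QuantSeq) in 30 libraries of LX2 cells, per the labels' protocols. The deposited table gives counts scaled to a library total of 1000000 (CPM) for 61597 genes. STAR 2.5.3a and HTSeq 0.6.0 are named in the submitters' processing notes, and the genome build and the strand setting are not given in the sources used here. Each library's CPM values were whole multiples of 1 read for 100% of values (within 0.01 read), so reads were recovered. Symbols matched 99.7% of identifiers.

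The 15137 genes that reached 1 CPM in 5 or more libraries were tested on log2(CPM + 1) with limma 3.58.1 (trend) in R 4.3.3, with group and experiment as terms. Benjamini-Hochberg adjustment ran over all genes tested, and calls needed an adjusted p under 0.05. Fold changes on this scale understate changes of low genes. Averaged comparisons weight the groups with and without BTC equally. edgeR 4.0.16 (quasi-likelihood) and DESeq2 1.42.0 on recovered reads were alternatives, with other pseudocounts, filters, scalings and samples. The scripts were tested on simulated data.

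The experiment block rests on the numbers in the labels: same-numbered libraries deviated together in all 75 pairs checked (lowest r = 0.12, median 0.51; other pairs median -0.20). The members and gene lists were chosen with earlier results of these data known. All members were named, with up to 4 genes of each other list with the smallest p and the 5 genes most like CCN1 and CCN2 at a mean of 5 CPM or more. No 2 libraries of a group differed by less than sampling noise. The values of 1 gene of the other lists are not reported here.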

Additional observations from a re-analysis of the deposited data

Results flagged for a closer look

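Of 60 sets of 5 libraries examined, 1 per gene and group, 2 held a library far from the other 4, where chance gives about 1 in 20. CRIM1 was at 121 CPM in Veh+BTC 2, and the nearest other Veh+BTC library was at 46.1 CPM. LATS2 was at 55.3 CPM in the same library, and the nearest other was at 17.4 CPM. This check did not take the experiment into account, and experiment 2 was high for both genes. CRIM1 averaged 96.2 CPM in experiment 2, against 20.8 to 60.4 CPM in the others. LATS2 averaged 39.2 CPM there, against 10.8 to 32.1 CPM in the others.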

How the results depend on the processing

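CCN2, THBS1, ANKRD1 and AJUBA stayed called as lower with DHA than with vehicle in every alternative except the fit with no replicate block. AJUBA against oleic acid also lost its call without experiment 3 (adjusted p = 0.0579). With no replicate block 0 members were called against vehicle and 0 against oleic acid, and 104 and 68 genes in all. CRIM1 against vehicle lost its call in 23 of 50 alternatives and TEAD1 in 15 of 50. Genes called against vehicle numbered 784 with 1 value per experiment and arm, 950 with edgeR, 575 without the 3 shallowest libraries, 1001 with only the groups compared and 830 without the 3 libraries farthest from the fit, an alternative chosen after seeing the data. Against oleic acid the numbers were 771, 965, 537 (without the shallowest) and 1025 (without the farthest). Leaving out 1 library or experiment gave 763 to 2071 genes against vehicle, lowest without experiment 4 and 787 without experiment 5, and 601 to 2102 against oleic acid, with 3 to 6 members. The cause was not tested.

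Uncalled differences near 0 changed sign. TEAD1 between oleic acid and vehicle was -0.0032 with a pseudocount of 2, -0.012 with TMM, -0.020 with quantile normalization, -0.010 with edgeR and -0.029 with DESeq2. YAP1 with BTC was 0.019 with median-of-ratios scaling, 0.0070 with TMM, 0.040 with quantile normalization, 0.015 with edgeR, 0.043 with DESeq2, 0.037 without the shallowest and 0.054 without the farthest libraries. LATS2 between DHA and vehicle was 0.040 under median-of-ratios scaling and 0.047 under quantile normalization. AMOTL2 between oleic acid and vehicle was -0.11 with edgeR, -0.092 with DESeq2 and -0.21 without the farthest libraries, where CCN1 was -0.13. Leaving out 1 library or experiment gave ranges of -0.33 to 0.13 for LATS2 between DHA and vehicle, -0.14 to 0.17 for YAP1 with BTC and -0.33 to 0.027 for CRIM1 between DHA+Veh and Veh+BTC. Between oleic acid and vehicle these were -0.13 to 0.60 for CCN1, -0.017 to 0.20 for THBS1, -0.21 to 0.31 for AMOTL2, -0.16 to 0.029 for CRIM1, -0.28 to 0.028 for YAP1 and -0.052 to 0.046 for TEAD1. Without the farthest libraries the calls against vehicle were 10 for other YAP and TEAD targets, 4 for other Hippo genes, 9 for actin and SRF targets, 3 for TGF-β targets and 2 for matricellular genes. Low members are limited by depth, since 3 reads were worth 0.316 to 2.41 CPM.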
